A study of Mus musculus with 6 samples.

Results

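The genes examined were the TAM receptors Mertk, Axl and Tyro3, their ligands Gas6 and Pros1, the bridging molecule Mfge8 and the phosphatidylserine receptors Timd4 and Stab2. They were taken by gene symbol from the deposited table, where all 8 were found among 54532 genes, and 4 of them (Mertk, Axl, Pros1 and Mfge8) had a mean level of at least 1 FPKM (fragments scaled to gene length and library size), the filter that left 8882 genes for testing. Polyadenylated RNA was sequenced from 3 WT and 3 progranulin-deficient (PGRN KO) macrophage libraries of C57BL/6J mice, numbered 1 to 3 and 4 to 6. In all 6 libraries the cells, labelled as recruited from the peritoneal cavity, had received Candida albicans for 6 hours, with 2000000 macrophages in each well and as many fungal cells, so the data hold no unchallenged baseline. The sample titles of the WT libraries also carry the word control, whereas the treatment label gives the challenge for both genotypes, and the study's text describes the sequenced cells as derived from bone marrow and gives another ratio of fungus to cells. PGRN KO mice came from the Jackson Laboratory and WT mice from Chongqing Medical University, matched for sex and age but not stated to be littermates, so that genotype and source of the mice cannot be told apart. Nothing in the labels ties the libraries to separate animals, and the p-values measure the spread between these libraries, which may be technical.

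Efferocytosis is the uptake of dying cells. A dying cell exposes phosphatidylserine on its surface, and phagocytes recognise it either directly, through receptors such as Timd4 and Stab2, or through soluble molecules that bridge the lipid to a receptor. Gas6 and protein S (Pros1) bridge phosphatidylserine to the TAM receptor tyrosine kinases, whereas Mfge8 bridges it to integrins of the alpha v family. Mertk is classically the efferocytic TAM receptor of resident and anti-inflammatory macrophages, Axl is induced by interferon and other inflammatory stimuli, and TAM signalling dampens cytokine production. Progranulin, encoded by Grn, is a secreted and lysosomal glycoprotein.

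The libraries held 15996786 to 17551619 counted fragments. Grn, the targeted gene, was measured at 323, 337 and 325 FPKM in WT and at 0.0166, 0 and 0.0167 FPKM in PGRN KO, which is 56466 fragments against 2. PGRN KO replicate 6 stood apart: its correlation with the other PGRN KO libraries across genes was 0.971 and 0.972, against 0.992 between those libraries and 0.991 to 0.993 within WT, and its deviations fell with gene length (Spearman rho across genes -0.47, against 0.15 to 0.24 in the other libraries). Of 6 general macrophage markers, Lyz2 was highest at 5657 to 8135 FPKM and Fcgr1 lowest at 4.24 to 9.95 FPKM. Adgre1 (F4/80) was at 162 to 195 FPKM. Of 10 markers of large resident peritoneal macrophages, 5 passed the filter. Among these were the transcription factor Gata6, at 3.78 to 5.07 FPKM, and Prg4, at 10.4 to 16.2 FPKM. Alox15, Selp, Cxcl13, Tgfb2 and Naip1, of the same list, averaged under 1 FPKM. Of 8 neutrophil markers, Ly6g and Cxcr2 were at 0 throughout and S100a9, Camp and Ngp at most at 0.443 FPKM, whereas S100a8 (21.2 to 52.8 FPKM), Mmp8 (16.7 to 21.2 FPKM) and Csf3r (9.12 to 13.7 FPKM) were present. In bulk RNA a smaller share of cells of a type and less RNA per cell cannot be told apart.

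The windows of 250 bases upstream of the RefSeq start sites are shown for Mfge8 and Mertk, which were higher in PGRN KO, and for Axl, the most abundant of the 8 genes, whose groups overlapped. Capitals mark GC boxes (GGGCGG) and PU.1 cores (GAGGAA) read on either strand. Coordinates are those of GRCm38.p6, and each window is written 5′ to 3′ on the strand of the gene.
Mfge8, chr7:79149061-79149310, minus strand: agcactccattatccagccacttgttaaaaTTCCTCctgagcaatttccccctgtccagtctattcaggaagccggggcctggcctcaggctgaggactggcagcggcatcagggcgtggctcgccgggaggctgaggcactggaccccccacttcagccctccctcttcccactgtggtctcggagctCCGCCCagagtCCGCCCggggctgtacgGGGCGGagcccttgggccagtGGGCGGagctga
Mertk, chr2:128698665-128698914, plus strand: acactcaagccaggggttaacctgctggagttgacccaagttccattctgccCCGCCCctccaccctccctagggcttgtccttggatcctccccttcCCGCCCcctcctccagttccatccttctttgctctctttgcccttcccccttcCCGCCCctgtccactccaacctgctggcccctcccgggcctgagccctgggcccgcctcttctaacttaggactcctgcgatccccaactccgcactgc
Axl, chr7:25788734-25788983, minus strand: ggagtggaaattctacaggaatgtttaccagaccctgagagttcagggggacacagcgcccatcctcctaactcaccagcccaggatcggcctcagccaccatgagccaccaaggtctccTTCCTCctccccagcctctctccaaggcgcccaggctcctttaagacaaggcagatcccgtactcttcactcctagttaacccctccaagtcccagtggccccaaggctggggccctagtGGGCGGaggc

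The Mfge8 window held 4 GC boxes, the nearest 12 bases upstream of the start site, and 1 PU.1 core 220 bases upstream. The Mertk window held 3 GC boxes, all between 99 and 198 bases upstream and all read on the opposite strand, and no PU.1 core. The Axl window held 1 GC box, 10 bases upstream, and 1 PU.1 core, 130 bases upstream. Windows were found for all 8 genes, and 6 of them, all but those of Timd4 and Stab2, held a GC box, against 32.7% of 32851 mouse promoter windows of the same length. A PU.1 core was found in 23.3% of all windows. The nuclear receptor half-site AGGTCA, in 14.0% of all windows, was found in those of Timd4 and Stab2 alone among the 8. The E-box CACGTG and the interferon-stimulated response element (TTTC, any 2 bases, TTTC), in 6.02% and 2.98% of all windows, were in none of the 8. These matches describe letters in the windows and not binding.

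Among the genes above the filter, Mertk and Mfge8 were significantly higher in PGRN KO, whereas Axl and Pros1 did not pass the test. These were 2 of 4 tested genes past a limma adjusted p of 0.05, both higher, beside 24.2% of the 8882 tested genes in either direction (10.4% higher and 13.8% lower). The 3 WT and 3 PGRN KO values did not overlap for the same 2 of 4 genes, which is close to the 48.8% of all tested genes whose groups did not overlap. By the size of the difference, 2.88% of tested genes passed the threshold with a log2 rise at least that of Mertk, 1.6% with a rise of at least 1 and 0.315% with a rise at least that of Mfge8. The per-library plot of all 8 genes shows these patterns.

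**Figure D1:**
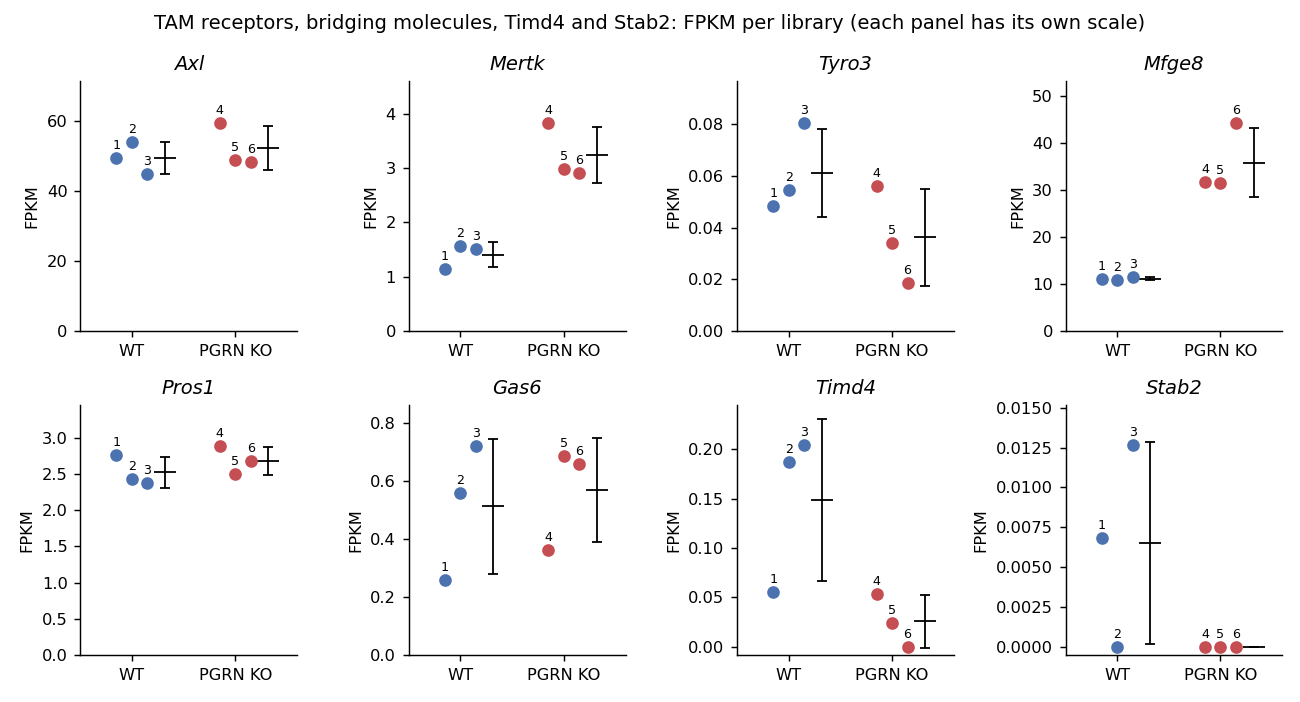
FPKM of the 8 genes in each library, with WT replicates 1 to 3 in blue, PGRN KO replicates 4 to 6 in red and the mean ± SD of 3 libraries as black bars. Each panel has its own linear scale. Mertk and Mfge8 are higher in each PGRN KO library than in any WT library, Axl, Pros1, Gas6 and Tyro3 overlap, and Tyro3, Timd4 and Stab2 rest on 0 to 9 fragments per library.

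Of the TAM receptors, Mertk (ENSMUSG00000014361, chromosome 2, 128698956 to 128802894, plus strand, GRCm38) was at 1.14, 1.56 and 1.52 FPKM in WT and at 3.84, 2.98 and 2.91 FPKM in PGRN KO. Each PGRN KO library was thus above each WT library, and the PGRN KO library that stood apart in general had the lowest of the 3 raised values. Mean levels were 1.41 ± 0.229 in WT and 3.24 ± 0.514 FPKM in PGRN KO (SD, n = 3 each), a ratio of 2.30. The values rest on 83, 100 and 119 fragments in WT and on 288, 245 and 218 in PGRN KO, and the ratio of the scaled fragment sums had a 95% exact interval of 2.01 to 2.64, which covers counting error only. On the log2(FPKM + 1) scale, which understates the change of a gene at this level, the difference was 0.81 ± 0.13 (SE) with a 95% interval of 0.52 to 1.11 and a limma adjusted p of 0.00640. With a pseudocount of 0.01 or in a fit of the fragments themselves the rise was up to 1.20 on the log2 scale. Without PGRN KO replicate 6 it was 0.87, with an adjusted p of 0.00383, and the call held when any library was left out.

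Axl (ENSMUSG00000002602, chromosome 7, 25757273 to 25788705, minus strand) was the most abundant of the 8 genes, with a mean above that of 89.9% of tested genes. It was at 49.5, 53.8 and 44.7 FPKM in WT and at 59.5, 48.9 and 48.4 FPKM in PGRN KO. The groups overlapped, and only PGRN KO replicate 4 was above all WT libraries. Means were 49.3 ± 4.56 and 52.2 ± 6.26 FPKM (SD, n = 3 each), and the log2 difference was 0.08 ± 0.12 (SE), for which limma gave an adjusted p of 0.657. The 95% interval of -0.20 to 0.36 sets the size of difference that these libraries leave possible. Without PGRN KO replicate 4 the difference was -0.02. Axl was counted from 4007 to 5183 fragments per library, so that the interval comes from the spread between libraries and not from depth.

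Tyro3 (ENSMUSG00000027298, chromosome 2, 119797733 to 119818104, plus strand) was near the limit of detection. It was at 0.0482, 0.0545 and 0.0805 FPKM in WT and at 0.0559, 0.0341 and 0.0187 FPKM in PGRN KO, from 5, 5 and 9 fragments and from 6, 4 and 2 fragments. The groups overlapped, and an exact two-sided permutation test gave p = 0.3, where 0.1 is the smallest p that 3 against 3 libraries can give. The ratio of scaled fragments, PGRN KO over WT, was 0.585 with a 95% exact interval of 0.259 to 1.27, so no difference was detectable at this depth.

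The balance between the TAM receptors was compared within each library, where scaling between libraries has no part. The ratio of Axl to Mertk was 43.3, 34.5 and 29.4 in WT and 15.5, 16.4 and 16.6 in PGRN KO. All WT ratios were above all PGRN KO ratios, and the PGRN KO libraries lay close together although their Axl and Mertk levels differed. Means were 35.7 ± 7.01 and 16.2 ± 0.590 (SD, n = 3 each; exact two-sided permutation p = 0.1, the smallest possible). With Axl overlapping, this ratio restates the rise of Mertk and is no separate test of it. Mertk made up 2.26% to 3.28% of the summed FPKM of the 3 receptors in WT and 5.67% to 6.05% in PGRN KO. The sum itself, 50.8 ± 4.56 in WT and 55.5 ± 6.79 FPKM in PGRN KO, overlapped between groups (exact permutation p = 0.4), since Axl supplied at least 93.9% of it in every library.

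**Figure D2:**
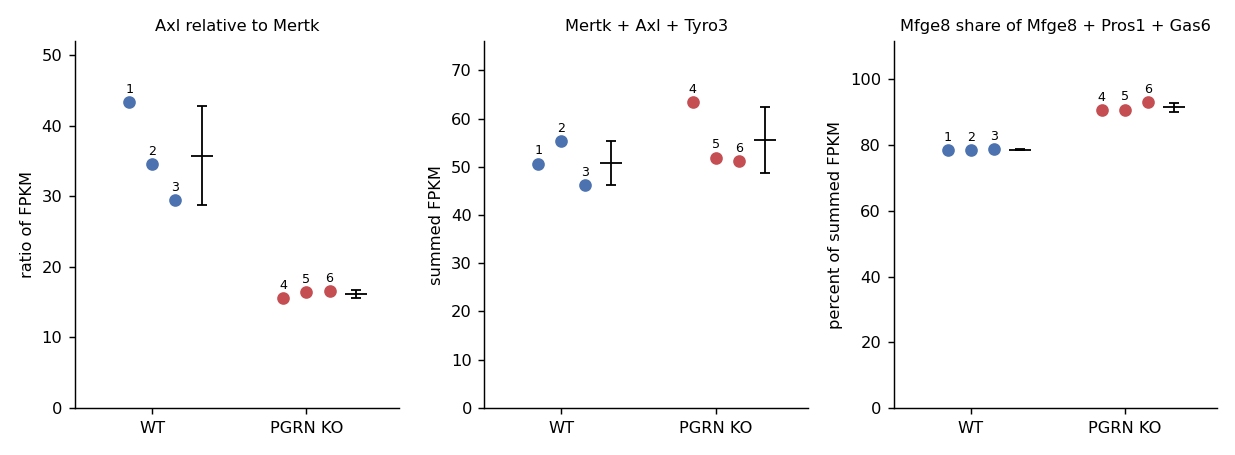
Balance of receptors and of bridging molecules within each library, with the ratio of Axl to Mertk FPKM (left), the summed FPKM of Mertk, Axl and Tyro3 (middle) and Mfge8 as a percent of the summed FPKM of Mfge8, Pros1 and Gas6 (right). Points are WT replicates 1 to 3 (blue) and PGRN KO replicates 4 to 6 (red) and bars the mean ± SD of 3 libraries. The ratio and the share separate the genotypes, and the sum of the receptors overlaps. Both are drawn from the same values as the rises of Mertk and Mfge8 and are no separate support for them.

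Pros1, protein S, was the more abundant of the TAM ligands (ENSMUSG00000022912, chromosome 16, 62854307 to 62929346, plus strand). It was at 2.76, 2.43 and 2.37 FPKM in WT and at 2.88, 2.49 and 2.68 FPKM in PGRN KO, with means of 2.52 ± 0.211 and 2.68 ± 0.194 FPKM (SD, n = 3 each). The ranges overlapped, with 2 WT values below all PGRN KO values and 1 PGRN KO value above all WT values. The log2 difference was 0.06 ± 0.09 (SE) with a 95% interval of -0.16 to 0.29 and a limma adjusted p of 0.643.

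Gas6 (ENSMUSG00000031451, chromosome 8, 13465374 to 13494490, minus strand), which binds all 3 TAM receptors, was at 0.258, 0.557 and 0.718 FPKM in WT and at 0.363, 0.684 and 0.659 FPKM in PGRN KO. The spread within each genotype was larger than the difference between the means of 0.511 ± 0.233 and 0.568 ± 0.179 FPKM (SD, n = 3 each). From 65 fragments in WT and 78 in PGRN KO the ratio of scaled fragments was 1.11 (95% exact interval 0.789 to 1.57, counting error only), and the exact two-sided permutation p was 0.7. Of its exonic bases, 34 overlap Tmem255b on the opposite strand, and the sources name no strand setting for the counting. The ratio of Pros1 to Gas6 ran from 3.31 to 10.7 in WT and from 3.65 to 7.95 in PGRN KO and did not separate the genotypes (exact permutation p = 0.8).

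Mfge8, also called lactadherin (ENSMUSG00000030605, chromosome 7, 79133768 to 79149060, minus strand), differed most among the 4 tested genes. It was at 11.1, 10.9 and 11.6 FPKM in WT and at 31.6, 31.6 and 44.3 FPKM in PGRN KO. The WT libraries were nearly alike, each PGRN KO library was above all of them, and PGRN KO replicate 6 was the highest. Means were 11.2 ± 0.359 and 35.8 ± 7.33 FPKM (SD, n = 3 each), a ratio of 3.21, from 755 to 980 fragments per WT library and 2570 to 3592 per PGRN KO library. The log2 difference was 1.58 ± 0.14 (SE), its 95% interval ran from 1.24 to 1.92, and limma gave an adjusted p of 0.00142. Without PGRN KO replicate 6 it was 1.42 ± 0.05 (SE), with an adjusted p of 0.000286. Mfge8 made up 78.4% to 78.9% of the summed FPKM of Mfge8, Pros1 and Gas6 in WT and 90.7% to 93.0% in PGRN KO (exact permutation p = 0.1, the smallest possible, from the same Mfge8 values). The sum of these bridging molecules was 14.2 ± 0.411 in WT and 39.1 ± 7.40 FPKM in PGRN KO.

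**Figure D3:**
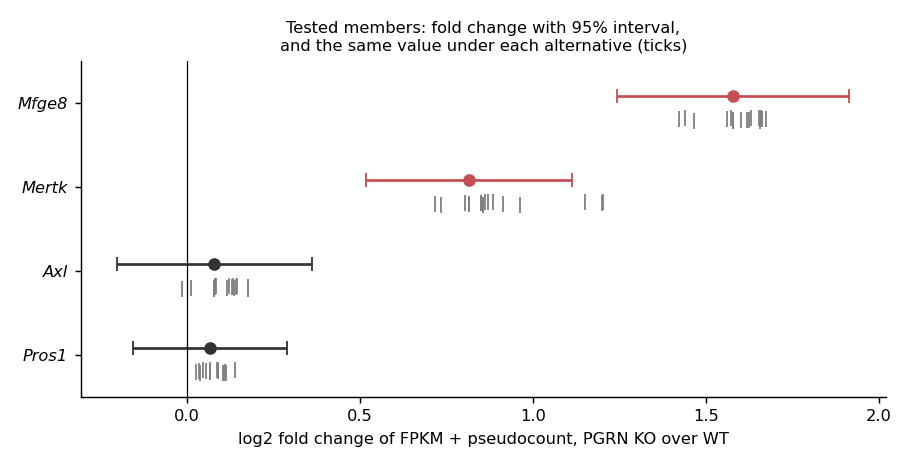
Difference between PGRN KO and WT for the 4 tested genes on the log2(FPKM + 1) scale (points, with 95% intervals from limma) and the same difference under each alternative processing (grey ticks, some of them with other pseudocounts). Mfge8 and Mertk, in red, passed an adjusted p of 0.05 and stayed above 0 throughout, whereas the intervals of Axl and Pros1 include 0.

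Timd4 (TIM-4), a phosphatidylserine receptor and marker of long-lived resident macrophages (ENSMUSG00000055546, chromosome 11, 46810800 to 46844332, plus strand), was at 0.0550, 0.187 and 0.204 FPKM in WT and at 0.0531, 0.0243 and 0 FPKM in PGRN KO. These are 2, 6 and 8 fragments against 2, 1 and 0. The groups did not overlap in FPKM, but the nearest libraries of each genotype both held 2 fragments. The ratio of scaled fragments, PGRN KO over WT, was 0.174 with a 95% exact interval of 0.0324 to 0.606, which covers counting error only. Between libraries the exact two-sided permutation test gave p = 0.1, the smallest possible, and without the filter the limma adjusted p was 0.176 on the log2(FPKM + 1) scale and 0.0972 in a fit of the fragments. Timd4 thus did not pass the test.

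Stab2, a scavenger receptor of sinusoidal endothelium that also binds phosphatidylserine (ENSMUSG00000035459, chromosome 10, 86841198 to 87008025, minus strand), was at 0.00683, 0 and 0.0127 FPKM in WT and at 0 in all 3 PGRN KO libraries. These were 3 fragments in all against 0, at or under the limit of 3 fragments per library that a count of 0 allows, so no fold is given, and 141 of its exonic bases overlap Gm16268 on the opposite strand. The mean level of Mfge8, by contrast, was above that of 81.2% of tested genes.

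In WT the mean levels per length ran in the order Axl, Mfge8, Pros1, Mertk, Gas6, Timd4, Tyro3 and Stab2, and only Timd4 and Tyro3 overlapped as neighbours in this order. In PGRN KO the order was Axl, Mfge8, Mertk, Pros1, Gas6, Tyro3, Timd4 and Stab2, where Tyro3, Timd4 and Stab2 overlapped with their neighbours. Mertk and Pros1 had changed places. In WT all 3 values of Pros1 were above all 3 of Mertk, and in PGRN KO the lowest Mertk value, 2.91 FPKM, was just above the highest Pros1 value, 2.88 FPKM.

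Markers of other cells also differed between the genotypes, some lists higher in PGRN KO, some lower and some overlapping. Among all tested genes 10.4% were significantly higher and 13.8% significantly lower, and the groups did not overlap for 48.8%. The summed level of 6 B cell markers was 4.79 to 6.08 FPKM in WT and 19.0 to 24.1 FPKM in PGRN KO, with 3 of 3 tested markers significantly higher. That of 6 mast cell markers was 2.29 to 3.19 FPKM and 9.72 to 14.0 FPKM, with 2 of 2 higher. Kit, in the mast cell list, overlapped (0.218 to 0.423 FPKM in WT and 0.130 to 0.343 FPKM in PGRN KO). Cd79a (0.697, 1.35 and 0.837 FPKM), Cd79b (0.376 to 0.813 FPKM) and Cma1 (0.620 to 0.932 FPKM) averaged under 1 FPKM in WT. They passed the filter only through PGRN KO, so the counts of higher markers were partly fixed by the filter. The sums of 6 endothelial markers (5.18 to 7.45 and 9.57 to 13.6 FPKM, mainly Lyve1, which macrophages also express) and of 6 fibroblast markers (0.864 to 0.901 and 1.86 to 3.45 FPKM) did not overlap between the genotypes. The sum of 10 markers of small peritoneal or monocyte-derived macrophages was lower in PGRN KO, at 576 to 916 FPKM against 1113 to 1183 FPKM. Cd74, H2-Ab1 and H2-Aa made up most of it. Of its 8 tested markers 3 were significantly lower, namely H2-Aa, Cd74 and Ly6c2, whereas H2-Ab1, Irf4, Retnla, Folr2 and Mrc1 did not pass the test. The sum of 10 markers of large resident peritoneal macrophages was 282 to 355 FPKM in PGRN KO against 456 to 500 FPKM in WT. Of the 5 tested markers of this second list, F10, which makes up most of the sum, was significantly lower, and Icam2 was significantly higher (log2 difference 0.57, limma adjusted p = 0.00914). Neutrophil markers summed to 80.2 to 87.1 FPKM in WT and 52.9 to 54.3 FPKM in PGRN KO. This fall was mainly that of S100a8, which was significantly lower (limma adjusted p = 0.00142), whereas Mmp8 and Csf3r were not (adjusted p = 0.717 and 0.0887). Dendritic cell markers summed to 1.84 to 2.27 and 1.10 to 1.44 FPKM with Cd209a at 0. Mesothelial markers summed to less than 1 FPKM in every library with Lrrn4 at 0. The sums of 6 general macrophage markers overlapped (7089 to 7422 FPKM and 7232 to 9722 FPKM), and Lyz2 made up most of them. Of these markers Csf1r was significantly lower in PGRN KO (log2 difference -0.38, limma adjusted p = 0.0178). Adgre1, Cd68, Itgam, Fcgr1 and Lyz2 did not pass the test. The sums of T or NK cell markers also overlapped (2.60 to 3.46 and 2.95 to 5.84 FPKM). So did those of eosinophil markers (0.0580 to 0.375 and 0.198 to 0.286 FPKM, with Epx and Prg2 at 0). The part of other cells in the levels of Mertk and Mfge8 was not tested.

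The genes whose levels ran most like those of Mertk, Axl and Mfge8 were sought by Pearson correlation of log2(FPKM + 1) over the 6 libraries among 3196 tested genes that varied. For Mfge8 the nearest was Psap (r = 0.9997), which encodes prosaposin, a lysosomal protein precursor known to bind progranulin, at 2113, 2136 and 2181 FPKM in WT and 3877, 3865 and 4798 FPKM in PGRN KO. Aldh1b1 and Serpinb1a followed, with r = 0.998 each. For Mertk the nearest were Tmem229b and Pxk (r = 0.991 each) and Tmem80 (r = 0.990). In these cases the points form a WT and a PGRN KO cluster, since both genes were higher in PGRN KO. For Axl the nearest were the interferon-inducible Ifi205 (r = 0.894), Mir222 (r = 0.884) and Il1bos (r = 0.882), and the values did not cluster by genotype. Mir222 is a short microRNA gene whose values, 2.27, 6.85 and 0.702 FPKM in WT, rest on few fragments, so its likeness to Axl may be counting noise. The libraries share their depth and scaling across genes, and these correlations are descriptions.

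The wider pathway was described with 6 lists of efferocytosis genes, 85 genes in all, of which 84 were in the table and 67 were tested. In PGRN KO 9 of these rose and 14 fell significantly, 34.3% against 24.2% of all tested genes. The lists were chosen with earlier results of these data known, so this share and those of the single lists below are descriptions only. The median log2 difference of the 67 was -0.0642 against -0.0307 over all tested genes. Among the 9, Maf and Ptk2 passed the filter only through their higher level in PGRN KO. The share of higher calls depended on scaling: it was 39.1% for the lists and 42.8% for all genes as deposited, 52.6% and 60.3% on a TPM scale (each library's FPKM divided by its sum), and 59.1% and 62.9% with the sum of fragments as library size. Of the 23 calls, 7 held when any library was left out, among them those of Cd300lf, Itgb3, Abcg1, Vav1 and Cd300ld. The other 16 held without PGRN KO replicate 6 but lost significance without at least 1 other library, with a highest limma adjusted p of 0.0620 to 0.137. Without WT replicate 1, 2 or 3, 16, 14 and 14 calls were lost, and without PGRN KO replicate 4 or 5, 11 and 9. No called gene changed direction under any alternative.

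**Figure D4:**
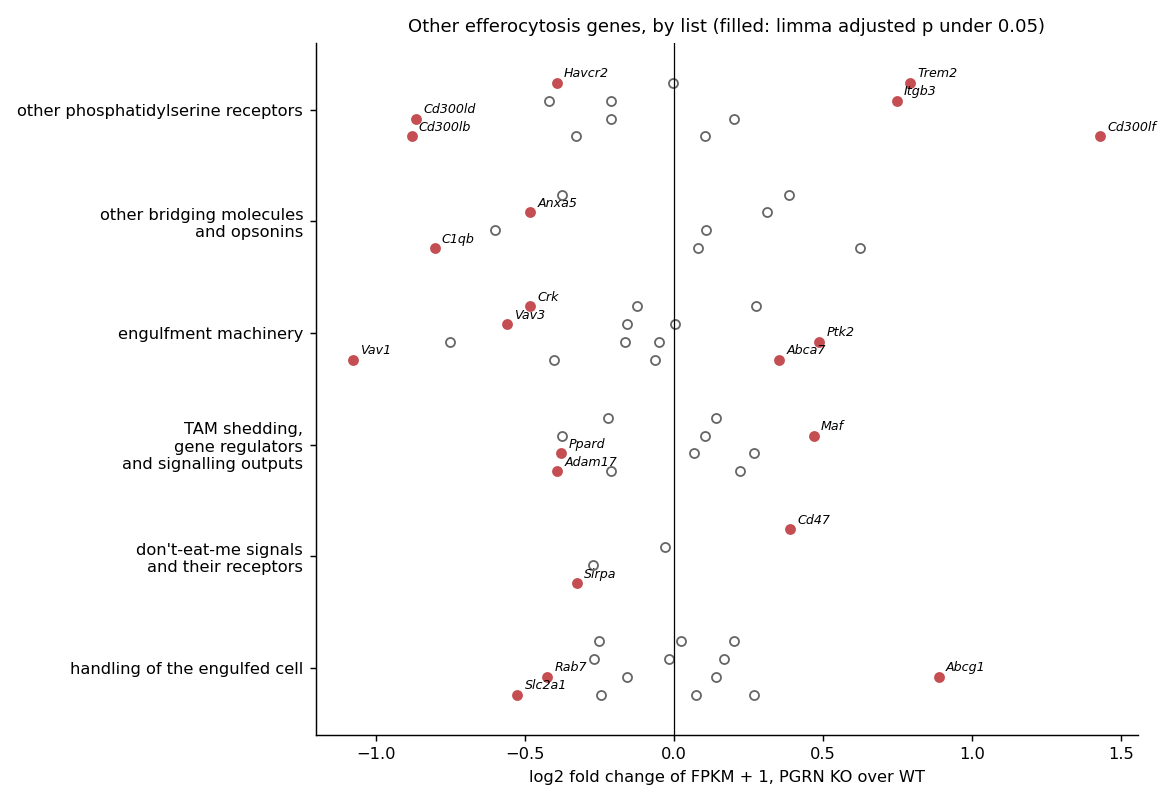
Log2 difference between PGRN KO and WT for 65 of the 67 tested genes of the 6 lists, 1 point per gene, with lists as rows and small vertical offsets for legibility. Filled and named genes passed a limma adjusted p of 0.05, and they lie on both sides of 0 in 5 of the 6 lists.

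Other phosphatidylserine receptors changed in both directions. Of 13 tested, 3 were significantly higher and 3 significantly lower, 46.2% beside 24.2% of all tested genes, and the median log2 difference was -0.211 beside -0.0307. Cd300lf, an inhibitory and phosphatidylserine-binding receptor of the CD300 family, increased from 2.73 ± 0.230 to 9.07 ± 0.785 FPKM (log2 difference 1.43 ± 0.10 SE, adjusted p = 0.00119 by limma). Its relatives Cd300ld and Cd300lb fell, from 50.4 ± 2.34 to 27.3 ± 2.37 FPKM and from 16.0 ± 3.71 to 8.15 ± 1.49 FPKM (limma adjusted p = 0.00238 and 0.0168). Trem2, a lipid-sensing receptor, rose from 30.9 ± 1.14 to 55.7 ± 17.3 FPKM (limma adjusted p = 0.0292), with 45.8 and 45.7 FPKM in PGRN KO replicates 4 and 5 and 75.8 FPKM in replicate 6. Havcr2 (TIM-3) also fell, by 0.39 on the log2 scale. Cd36, the most abundant of the list, was at 129 ± 3.09 and 103 ± 9.91 FPKM and missed the threshold (limma adjusted p = 0.0553), which it passed without PGRN KO replicate 6 (adjusted p = 0.00977), and Stab1, the paralogue of Stab2, was at 1.83 ± 0.0776 and 1.83 ± 0.101 FPKM (adjusted p = 0.975).

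The integrin subunits that receive Mfge8 did not move together. Itgb3 rose from 2.27 ± 0.153 to 4.52 ± 0.763 FPKM (log2 difference 0.75 ± 0.12 SE, limma adjusted p = 0.00800). Its partner Itgav, the alpha v subunit, was at 62.7 ± 2.00 FPKM in WT and at 59.1, 56.2 and 30.3 FPKM in PGRN KO, where replicate 6 was far below the others, and did not pass the test (log2 difference -0.42, or -0.12 without replicate 6, limma adjusted p = 0.239). Itgb5, the other beta subunit of the Mfge8 receptors, was at 10.4 ± 1.53 and 11.2 ± 1.03 FPKM (limma adjusted p = 0.570).

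Among other bridging molecules and opsonins, 2 of 9 tested genes were lower and none higher, 22.2% beside 24.2% of all tested genes. Anxa5, which coats phosphatidylserine, fell from 698 ± 41.1 to 501 ± 67.4 FPKM (limma adjusted p = 0.0339). Of the chains of the complement opsonin C1q, C1qb fell from 118 ± 5.87 to 69.1 ± 21.4 FPKM (limma adjusted p = 0.0287), whereas C1qa was at 108 ± 1.31 and 119 ± 44.2 FPKM (adjusted p = 0.817) and C1qc at 46.7 ± 2.72 and 62.9 ± 18.8 FPKM (adjusted p = 0.183). PGRN KO replicate 6 had the highest C1q value of its group for all 3 chains, and C1qa was at 93.6 and 93.0 FPKM in replicates 4 and 5 and at 170 FPKM in replicate 6. Without replicate 6 the log2 differences were -0.20 for C1qa, which was then significantly lower (limma adjusted p = 0.0139), -1.04 for C1qb and 0.16 for C1qc. Lgals3 (galectin-3), the most abundant of the list and a ligand of Mertk, was at 1076 ± 29.9 and 1177 ± 270 FPKM (log2 difference 0.11, or -0.07 without PGRN KO replicate 6, limma adjusted p = 0.667).

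In the engulfment machinery, which moves actin downstream of these receptors, 2 of 14 tested genes were higher and 3 lower, 35.7% beside 24.2% of all tested genes. Vav1, a guanine nucleotide exchange factor for Rac, fell from 55.7 ± 2.10 to 25.9 ± 1.81 FPKM, a log2 difference of -1.08 ± 0.09 (SE; limma adjusted p = 0.00119). Vav3 (-0.56) and the adaptor Crk (-0.48) also fell, and the focal adhesion kinase Ptk2 (0.49) and the lipid transporter Abca7 (0.35) rose on the log2 scale. Rhog, the most abundant of the list, was at 193 ± 6.35 and 175 ± 38.1 FPKM (limma adjusted p = 0.465), and without PGRN KO replicate 6 it was significantly lower, by a log2 difference of -0.34 (adjusted p = 0.00572).

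Genes that shed, regulate or answer to TAM receptors were 2 of 13 higher and 3 lower, 38.5% beside 24.2% of all tested genes. Adam17, a protease that cleaves Mertk from the cell surface, fell from 25.1 ± 0.911 to 18.9 ± 1.34 FPKM (log2 difference -0.39 ± 0.09 SE, limma adjusted p = 0.0217), and Adam10, which cleaves Axl, was at 9.52 ± 0.216 and 10.1 ± 1.90 FPKM (log2 difference 0.07, adjusted p = 0.745). In PGRN KO Adam10 was at 11.2, 11.2 and 7.94 FPKM, and without replicate 6 it was significantly higher (0.22, limma adjusted p = 0.0196). Of the nuclear receptors known to drive Mertk, Nr1h3 (LXR alpha) was at 0.880 ± 0.196 and 1.10 ± 0.102 FPKM, under the filter, Nr1h2 (LXR beta) did not pass the test (log2 difference 0.10, or -0.02 without PGRN KO replicate 6, adjusted p = 0.584) and neither did their partner Rxra, at 9.54 ± 1.26 and 7.11 ± 0.724 FPKM (adjusted p = 0.0653). The transcription factor Maf rose by 0.47 on the log2 scale (limma adjusted p = 0.0311), and the nuclear receptor Ppard fell by 0.38 (adjusted p = 0.0330). Maf, at 0.942 ± 0.228 and 1.68 ± 0.165 FPKM, passed the filter only through PGRN KO. Its call was lost without WT replicate 1 or 2 or PGRN KO replicate 4 or 5. The TAM-induced suppressors Socs3, at 899 ± 101 and 776 ± 75.0 FPKM (limma adjusted p = 0.269), and Socs1, at 18.5 ± 1.44 and 20.7 ± 3.48 FPKM (adjusted p = 0.475), did not pass the test.

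Of the don't-eat-me signals and their receptors, the ligand Cd47 rose from 29.7 ± 0.913 to 39.3 ± 3.01 FPKM and its receptor Sirpa fell from 93.3 ± 1.22 to 74.2 ± 0.696 FPKM (limma adjusted p = 0.0233 and 0.0252). These were 2 of 4 tested genes, 50% beside 24.2% of all. Among 14 tested genes for handling the engulfed cell, the cholesterol exporter Abcg1 rose from 1.13 ± 0.181 to 2.94 ± 0.293 FPKM (log2 difference 0.89 ± 0.11 SE, limma adjusted p = 0.00322). The calls in this list were 21.4% of its tested genes beside 24.2% of all. The glucose transporter Slc2a1 and the late endosome GTPase Rab7 fell, by 0.52 and 0.42 on the log2 scale (limma adjusted p = 0.0138 and 0.0198). The medians of the lists, 0.0815 for other bridging molecules, -0.142 for engulfment, 0.0671 for TAM shedding and regulators, -0.15 for don't-eat-me signals and 0.00429 for handling, stand beside -0.0307 over all tested genes.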

How the data were processed

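The authors aligned reads to the mouse genome, counted fragments per gene and deposited FPKM for each library. The submitters' processing notes name CASAVA, HISAT2 2.0.5, featureCounts 1.5.0-p3, DESeq2 1.20.0 and mm10 or GRCm38, whereas the study's methods name HISAT and HTSeq. None of these sources names the annotation release or the strand setting. All 8 genes had the same coordinates in GENCODE M21 (GRCm38), and none of their 31-base words occurred in another gene.

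Multiplied by gene length, 100.0% of deposited FPKM values were a whole number of fragments, within a tolerance of 0.001, once divided by the value of 1 fragment in that library. The library size the authors divided by was 0.925 to 1.09 times their sum. log2(FPKM + 1) was compared for 8882 genes, those whose mean FPKM reached 1, with limma 3.58.1 in R 4.3.3 (mean-variance trend, no covariates, two-sided, Benjamini-Hochberg adjustment over all 8882 genes, threshold 0.05). This differs from the count model the authors used, since the files hold FPKM. Genes under the filter were given by fragments with 95% exact intervals, which cover counting error only, and an exact permutation test. No replicate pair agreed within sampling noise (lowest chi-square per degree of freedom 4.53). The alternatives included pseudocounts, filters, scalings, a gene length correction, voom (a limma fit of fragments) and leaving out each library. On 10 simulated draws of 8882 genes, 3 libraries against 3, with 200 changed by 1 on the log2 scale, 87.5% were recovered and 7.32% of calls were false. The draws gave all genes the same dispersion (spread beyond counting) of 0.02. They held no library like PGRN KO replicate 6 and no gene length trend. These rates therefore do not give the error rates of the calls in these data.

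The 8 genes and the lists were chosen with earlier results of these data known. Named were the 8 genes, Grn, the most abundant gene of each list, its 2 largest rises and falls past the threshold, a set of receptor, protease and regulator genes, and for Mertk, Axl and Mfge8 the 3 genes with the highest correlation among those with an SD of at least 0.25, without predicted gene models. Havcr2, Crk and Ppard, and the marker genes named with values, were added after their values were seen. In the lists, 2 tested genes are counted in the totals but not reported here. Promoter windows are from RefSeq.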

Additional observations from a re-analysis of the deposited data

How the results depend on the processing

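The log2 differences of Mertk, Axl, Pros1 and Mfge8 were compared under 17 or 18 alternative fits per gene, all on the same libraries. Of these 70 pairs of gene and fit, 69 kept their direction and side of the threshold. The exception was Axl without PGRN KO replicate 4, which reversed to -0.0166 (limma adjusted p = 0.930), where leaving out 1 library gave -0.0166 to 0.142. Mfge8 was called in 18 of 18 fits (log2 difference 1.42 to 1.67, adjusted p 2.19e-05 to 0.0151) and Mertk in 17 of 17 (0.72 to 1.20, 0.000451 to 0.0371). Of the 8 genes 2 were called, both higher, and 1 with a mean FPKM of at least 5, where Mertk was not tested, and 1 with an absolute log2 difference of at least 1, which Mertk did not reach with a pseudocount of 1. Counts over all tested genes moved more, but the number of genes tested differed too. It was 8882 with the main filter of a mean FPKM of at least 1, 22912 with no filter and 4855 with a mean FPKM of at least 5. With the main filter and fit 921 were higher and 1230 lower, 2151 in all. These were 603, 763 and 1366 with no filter, 1757, 2468 and 4225 with sample quality weights, 1726, 1907 and 3633 with the gene length correction without PGRN KO replicate 6, and 142, 91 and 233 with an absolute log2 difference of at least 1. With a mean FPKM of at least 5, 529 were higher. On the TPM scale 608 were lower and with the sum of fragments 695. Leaving out 1 library gave 327 to 1415 higher, 371 to 2230 lower and 698 to 3645 in all, the lowest without WT replicate 1 and the highest without PGRN KO replicate 6. In the 6 lists 9 were higher, 14 lower and 23 called in all. These were 15, 26 and 41 with weights, and 1, 2 and 3 with an absolute log2 difference of at least 1. With no filter 9 were lower and 15 called in all, on the TPM scale and with the sum of fragments 9 were lower, with a mean FPKM of at least 5, 5 were higher, and with the length correction without PGRN KO replicate 6, 24 were lower and 37 called. Leaving out 1 library gave 4 to 12 higher, 3 to 25 lower and 7 to 37 in all. The causes of these shifts were not tested. The values had been seen before the fit of fragments with no filter was added. No paired analysis was possible because WT and PGRN KO share no replicate numbers. Depth limited Tyro3, Timd4 and Stab2, for which a count of 0 allows up to 3 fragments per library.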
